A study of Homo sapiens with 9 samples.

Results

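Mitochondrial oxidative phosphorylation genes were examined in the hepatocellular carcinoma cell line Huh7 and in sorafenib-resistant cells derived from it. All probe sets were taken whose single annotated symbol is protein coding and begins with NDUFA, NDUFB, NDUFC, NDUFS, NDUFV, SDHA to SDHD, UQCR, COX4 to COX8, CYC1 or ATP5, without regard to their values. This gave 79 of the 11013 probe sets in the deposited table, for 78 of the 9784 genes that have 1 symbol. Of 91 candidate probe sets, 8 carried several symbols and 4 were pseudogenes, and these were left out. The 78 genes were 4 core and 26 accessory genes of complex I, 3 of complex II, 8 of complex III, 9 of complex IV, 17 of complex V, and 11 assembly or regulatory factors that share the prefixes without being structural subunits.

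Sorafenib is a multikinase inhibitor used against advanced liver cancer, and the study asked which transcripts differ once Huh7 cells have become resistant to it. Huh7-S are the parental, untreated cells. Huh7-R is an uncloned pool that received weekly 4-hour pulses of 10 µM sorafenib over 6 weeks, and was then held in sorafenib raised stepwise to 6 µM in 0.1% DMSO. A single colony of that pool was expanded into Huh7-R-A7, so its differences are those of 1 clone. Drug was removed from both resistant groups 1 week before RNA was harvested, while no drug is given for Huh7-S, so past exposure, selection and withdrawal cannot be told apart. Each group has 3 arrays, described as biological replicates, so precision is limited and p-values measure only the spread between these arrays. Pool and clone arrays of the same replicate number deviated together from their group means, while parental arrays paired with neither. The labels name no shared day, so a difference in handling of the parental arrays cannot be told apart from resistance.

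Complexes I to IV form the respiratory chain of the inner mitochondrial membrane: complex I oxidizes NADH, complex II oxidizes succinate, both pass electrons through coenzyme Q to complex III, and cytochrome c carries them on to complex IV, which reduces oxygen. Complexes I, III and IV pump protons, and complex V, the ATP synthase, uses the gradient to make ATP. Complex II is encoded wholly in the nucleus, while the other complexes mix nuclear and mitochondrial subunits. Hepatocytes are rich in mitochondria, and sorafenib is known to impair the respiratory chain in isolated mitochondria.

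The arrays were close in overall level, with medians from 8.22 to 8.38 on the log2 scale and correlations between arrays from 0.929 to 0.9976. Of the 10 hepatocyte markers examined 8 were measured. In Huh7-R-A7, 6 were lower than in Huh7-S and none higher, and in Huh7-R 7 were lower and 1 higher. The median log2 differences were -1.89 and -1.54. At an adjusted p below 0.05 with limma, 75.0% and 100.0% of the 8 passed, beside 42.7% and 45.1% of all genes. None of 9 markers of leukocytes, endothelium and fibroblasts has a value in the table used here. For 2 of the 3 clone arrays the description names another clone than A7, while title, source and the rest of the description give A7, which was followed. In a bulk RNA array, less RNA per cell and fewer cells with the transcript cannot be told apart. For 69.2% of the oxidative phosphorylation genes, and 59.9% of all genes, at least 2 of the 9 arrays hold exactly the same value. Such ties make the spread between replicates look smaller.

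Promoters are shown for 5 genes that carry differences described below and hold one of 4 motifs known from oxidative phosphorylation promoters. They are examples, chosen after the values were seen. Other genes fit the same terms, among them NDUFS1, SDHAF3, COX8A and ATP5F1A, which hold ETS letters and were lower in both resistant groups. Each run is 250 bases before to 50 bases after the RefSeq gene start (GRCh38.p14), written 5′ to 3′ on the gene's strand, with the motif letters in capitals. NDUFA6 lies at chr22:42090723-42091022 on the minus strand, with an NRF1 motif starting 166 bases before the start and a YY1 motif at base 26 of the transcript. NDUFS6 lies at chr5:1801157-1801456 on the plus strand with an NRF1 motif 46 bases before the start. UQCRC1 lies at chr3:48609597-48609896 on the minus strand with a YY1 motif at base 24 of the transcript. ATP5F1C lies at chr10:7787927-7788226 on the plus strand, with overlapping NRF1 motifs on the 2 strands 22 and 20 bases before the start. ATP5MG lies at chr11:118401356-118401655 on the plus strand with an ETS motif at base 2 of the transcript.
NDUFA6: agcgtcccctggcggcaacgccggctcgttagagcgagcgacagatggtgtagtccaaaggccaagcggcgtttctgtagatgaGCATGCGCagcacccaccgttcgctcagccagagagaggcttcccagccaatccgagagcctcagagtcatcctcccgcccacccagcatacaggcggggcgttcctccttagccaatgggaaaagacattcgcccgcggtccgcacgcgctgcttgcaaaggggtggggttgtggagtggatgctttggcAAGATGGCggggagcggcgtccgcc
NDUFS6: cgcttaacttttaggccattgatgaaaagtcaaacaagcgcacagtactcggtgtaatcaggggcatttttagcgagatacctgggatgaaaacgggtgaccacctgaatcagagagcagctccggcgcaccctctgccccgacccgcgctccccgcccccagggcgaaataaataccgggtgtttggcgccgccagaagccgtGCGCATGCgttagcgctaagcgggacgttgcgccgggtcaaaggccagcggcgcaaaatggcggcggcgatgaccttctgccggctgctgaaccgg
UQCRC1: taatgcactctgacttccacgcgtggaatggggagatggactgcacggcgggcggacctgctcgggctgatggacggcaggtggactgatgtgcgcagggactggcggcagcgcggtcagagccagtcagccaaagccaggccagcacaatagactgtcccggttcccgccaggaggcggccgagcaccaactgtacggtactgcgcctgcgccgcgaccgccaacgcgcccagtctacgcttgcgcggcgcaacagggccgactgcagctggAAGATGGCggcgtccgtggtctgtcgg
ATP5F1C: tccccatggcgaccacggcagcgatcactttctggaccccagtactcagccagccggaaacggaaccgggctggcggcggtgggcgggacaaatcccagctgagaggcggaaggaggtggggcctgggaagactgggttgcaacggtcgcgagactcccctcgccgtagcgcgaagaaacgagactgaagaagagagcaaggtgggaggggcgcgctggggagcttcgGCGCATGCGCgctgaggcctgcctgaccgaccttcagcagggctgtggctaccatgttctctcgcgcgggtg
ATP5MG: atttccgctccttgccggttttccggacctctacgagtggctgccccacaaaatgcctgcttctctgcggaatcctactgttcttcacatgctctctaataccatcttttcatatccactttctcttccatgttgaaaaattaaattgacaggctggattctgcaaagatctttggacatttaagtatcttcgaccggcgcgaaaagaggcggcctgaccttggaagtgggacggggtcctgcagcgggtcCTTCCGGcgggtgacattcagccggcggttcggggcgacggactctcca

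The motifs were searched by their letters on both strands: GCGCATGC for NRF1, CCGGAAG for ETS factors such as GABPA, AAGATGGC for YY1 and TCAAGGTCA for ESRRA. A promoter was matched for 66 of the 78 genes. It held the NRF1 letters in 14 (21.2%, against 6.7% of the promoters of all genes in the table and 3.1% of all RefSeq promoters), and the ETS letters in 21 (31.8%, against 24.1% and 10.3%). The YY1 letters stood in 10 (15.2%, against 7.5% and 2.9%) and the ESRRA letters in 1 (1.5%, against 0.2% and 0.4%). NRF1 promoters belonged both to genes lower in resistant cells (NDUFA6, NDUFS6) and to a gene higher in the clone (ATP5F1C). Of the 14 genes with the NRF1 letters, 2 were higher and 3 lower in Huh7-R-A7 than in Huh7-S. Of the 52 without them, 4 were higher and 13 lower. Of the 21 genes with the ETS letters, 1 was higher and 4 lower in the clone, and of the 45 without them 5 and 12. For the 10 genes with the YY1 letters these counts were 0 and 2, and for the 56 without them 6 and 14. In the pool, 1 was higher and 4 lower with the NRF1 letters, against 2 and 16 without. With the ETS letters the pool had 2 and 5, against 1 and 15 without. With the YY1 letters it had 0 and 3, against 3 and 17 without. A letter match describes the promoter and does not show a factor at work.

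Across the set as deposited, genes that passed as lower outnumbered those that passed as higher in both resistant groups. Comparing Huh7-R-A7 with Huh7-S, 26 of the 78 genes passed an adjusted p below 0.05 with limma (33.3%), 8 higher and 18 lower. Among all 9784 genes 42.7% passed, 18.0% higher and 24.6% lower. As deposited, a smaller share of this set thus differed than of the table as a whole. For Huh7-R compared with Huh7-S, 25 genes passed (32.1%), 3 higher and 22 lower, where 45.1% of all genes passed, 19.0% higher and 26.2% lower. The median log2 difference of the set was -0.04 in the clone and -0.03 in the pool, the same as the median of all genes in each comparison (-0.04 and -0.03). Both comparisons use the same Huh7-S arrays, so genes that pass in both are to be expected. The overlap was not counted over all genes, so it is not read as a trait of this set. Set side by side, 16 genes were lower in both, 1 was higher in both, 7 were higher and 2 lower in the clone alone, 2 were higher and 6 lower in the pool alone, and 44 passed in neither.

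The balance of increases and decreases depended on how the arrays were scaled. With each array centred on its median, 16 genes were higher and 15 lower in Huh7-R-A7, and 13 higher and 18 lower in Huh7-R. That was 31 of the 78 in each, where 45.3% and 47.2% of all genes passed. Cyclic loess gave 15 higher and 17 lower in the clone, and 9 higher and 18 lower in the pool. That was 32 and 27 of the 78, where 44.8% and 47.1% of all genes passed. Under both scalings the share of the set that passed in the clone came nearer to that of all genes. The share of increases among the passing genes thus went from 30.8% to 51.6% or 46.9% in the clone and from 12.0% to 41.9% or 33.3% in the pool. No gene of the set that passed against Huh7-S reversed its direction under either scaling. Leaving out 1 array at a time, 15 of the 26 clone calls and 15 of the 25 pool calls held in all 9 fits. Huh7-S 3 was the lowest parental array in 70 of the 78 genes (58.0% of all genes), and the median SD of the set was 0.15 in Huh7-S against 0.07 in Huh7-R and 0.08 in Huh7-R-A7.

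**Figure D1:**
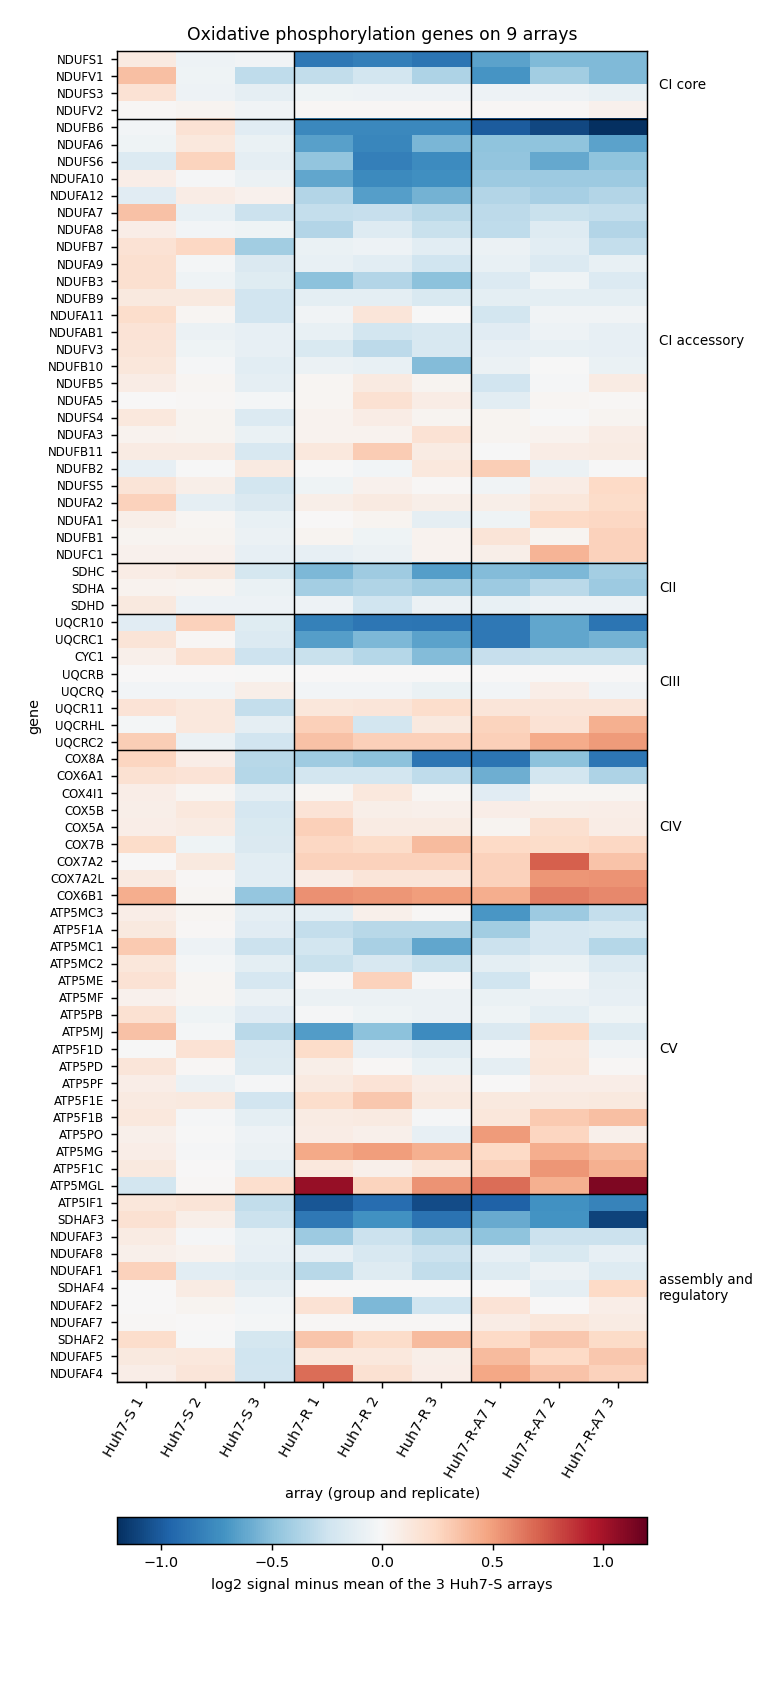
Log2 signal of the 78 oxidative phosphorylation genes (rows, by complex) on the 9 arrays (columns), as the difference from the mean of the 3 Huh7-S arrays. Blue rows such as NDUFS1, NDUFB6, SDHC, UQCR10 and ATP5IF1 run through both resistant groups, and Huh7-S 3 is bluer than the other parental arrays in most rows.

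Complex I, the NADH dehydrogenase, was represented by 30 subunits. As deposited, 8 were lower in Huh7-R-A7 (26.7%) and 9 in Huh7-R (30.0%), close to the 24.6% and 26.2% of all genes that were lower. None passed as higher in either resistant group, whereas under both other scalings NDUFB1 and NDUFC1 passed as higher in the clone and NDUFB11 in the pool. The counts of lower genes include NDUFA10 and NDUFS6, which stayed in the table only through their parental arrays. The median log2 difference of the 30 was -0.10 in the clone and -0.12 in the pool. For the 26 accessory genes alone it was -0.10 and -0.12 as well, and it was nearer 0 without Huh7-S 1 (-0.02 and -0.04) and with median-centred arrays (-0.02 and -0.04). For the 4 core genes it went from -0.31 to -0.18 in the clone and from -0.18 to -0.05 in the pool without Huh7-S 1.

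Of the core subunits, some of which carry the flavin or iron-sulfur clusters, NDUFS1 changed most. NDUFS1, which holds iron-sulfur clusters of the NADH-oxidizing arm, had log2 signals of 11.68, 11.51 and 11.53 in Huh7-S, 10.72, 10.75 and 10.70 in Huh7-R, and 10.93, 11.04 and 11.04 in Huh7-R-A7. The 3 groups did not overlap, with the clone between pool and parental cells. The log2 difference was -0.85 ± 0.06 (SE, n = 3 per group, 1.8-fold, adjusted p = 3.8e-05) in Huh7-R and -0.57 ± 0.06 (1.49-fold, adjusted p = 0.00025) in Huh7-R-A7. NDUFV1, which binds NADH and the flavin, gave 11.87, 11.46 and 11.21 in Huh7-S, 11.22, 11.29 and 11.14 in Huh7-R, and 10.81, 11.10 and 10.98 in Huh7-R-A7. The clone lay below all parental arrays, while the pool overlapped them. NDUFV1 had a log2 difference of -0.55 ± 0.16 in the clone (adjusted p = 0.026) and -0.30 ± 0.16 in the pool (adjusted p = 0.17). The clone call did not hold without Huh7-S 2, Huh7-R-A7 1 or Huh7-R-A7 3 (adjusted p from 0.0558 to 0.0837). The other core genes, NDUFS3 and NDUFV2, stayed within 0.07 of the parental mean on the log2 scale in both groups.

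Among the accessory subunits, which surround and stabilize the core, NDUFB6 fell furthest in the clone. NDUFB6, a subunit of the membrane arm, gave 7.99, 8.19 and 7.88 in Huh7-S, 7.25 on all 3 arrays of Huh7-R, and 7.02, 6.93 and 6.82 in Huh7-R-A7. The groups did not overlap, and the pool values are equal, so they show no spread. NDUFB6 fell by 1.10 ± 0.09 on the log2 scale in the clone (2.14-fold, adjusted p = 4.6e-05), the largest decrease in the set, and by 0.77 ± 0.09 in the pool (1.70-fold, adjusted p = 0.00027). NDUFA6, a small subunit of the LYR protein family, gave 9.17, 9.35 and 9.14 in Huh7-S, 8.57, 8.44 and 8.67 in Huh7-R, and 8.74, 8.74 and 8.58 in Huh7-R-A7. Both resistant groups lay below every parental array and overlapped each other. Its log2 difference was -0.54 ± 0.08 in the clone (adjusted p = 0.0016) and -0.66 ± 0.08 in the pool (adjusted p = 0.00054). NDUFA12, a subunit related to the assembly factor NDUFAF2, measured 11.17, 11.40 and 11.36 in Huh7-S, 10.96, 10.65 and 10.74 in Huh7-R, and 10.96, 10.91 and 10.96 in Huh7-R-A7. Both resistant groups were lower, with log2 differences of -0.53 ± 0.09 in the pool (adjusted p = 0.0028) and -0.36 ± 0.09 in the clone (adjusted p = 0.015), the clone call being lost without Huh7-S 2 or Huh7-R-A7 2 (adjusted p from 0.0525 to 0.0556) and with median-centred arrays.

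NDUFA10 and NDUFS6, also accessory subunits, sat near the noise limit of log2 6 that the study used. NDUFA10, a membrane arm subunit with a fold like nucleoside kinases, gave 6.23, 6.14 and 6.08 in Huh7-S, 5.53, 5.39 and 5.41 in Huh7-R and 5.71 on every Huh7-R-A7 array. NDUFS6, which binds zinc in the NADH-oxidizing arm, gave 6.22, 6.65 and 6.28 in Huh7-S, 5.91, 5.56 and 5.63 in Huh7-R, and 5.91, 5.77 and 5.90 in Huh7-R-A7. All resistant arrays were below 6 for both genes and did not overlap the parental arrays. Both genes thus passed the study's filter only through the parental arrays, where they are higher. Their p-values are therefore no independent support for a decrease. With the resistant values set to 6, NDUFA10 was at least 1.11-fold and NDUFS6 at least 1.31-fold lower in each resistant group. As deposited, the log2 difference of NDUFA10 was -0.44 ± 0.06 in the clone (adjusted p = 0.00068) and -0.71 ± 0.06 in the pool (adjusted p = 6.8e-05), and that of NDUFS6 -0.53 ± 0.13 (adjusted p = 0.014) and -0.68 ± 0.13 (adjusted p = 0.0041). The clone call of NDUFS6 was lost without Huh7-R-A7 2 (adjusted p = 0.0507).

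NDUFB3, a small membrane arm subunit, passed in the pool alone. It gave 9.54, 9.29 and 9.20 in Huh7-S, 8.85, 8.99 and 8.85 in Huh7-R, and 9.18, 9.29 and 9.18 in Huh7-R-A7, a log2 difference of -0.44 ± 0.09 in the pool (adjusted p = 0.0055) and -0.12 ± 0.09 in the clone (adjusted p = 0.32). The clone minus pool difference of 0.32 ± 0.09 missed the threshold (adjusted p = 0.075). NDUFA8 passed in both with log2 differences of -0.27 and -0.26, and NDUFV3 in the pool with -0.23, but neither held in every fit that left out 1 array or under the other scalings. The remaining 18 accessory genes passed in neither group, with log2 differences from -0.29 (NDUFA7) to 0.26 (NDUFC1) in the clone and from -0.30 (NDUFA7) to 0.18 (NDUFB11) in the pool. NDUFB2 was the only gene of the set with more than 1 probe set, and neither of its 2 passed.

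**Figure D2:**
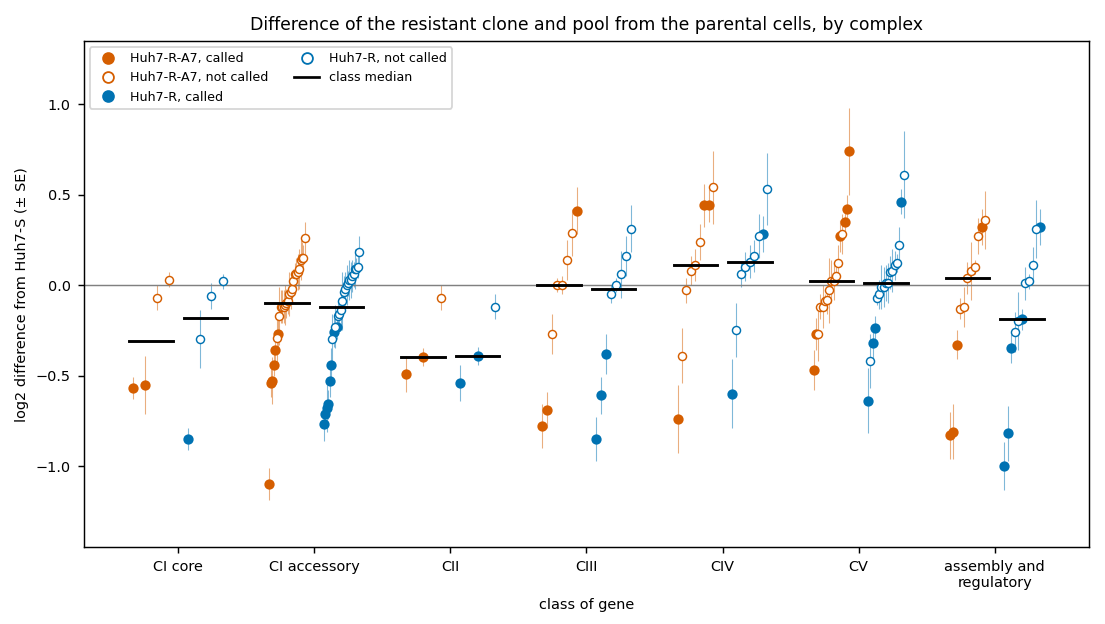
Log2 difference from Huh7-S (vertical axis, ± SE) of every gene in Huh7-R-A7 (orange) and Huh7-R (blue), by class. Filled points passed an adjusted p below 0.05 and black bars are class medians. Filled points of complexes I and II lie below 0 only, while those of complexes IV and V lie on both sides.

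Complex II, succinate dehydrogenase, links the citric acid cycle to the respiratory chain. Of its 3 measured subunits SDHA and SDHC fell in both resistant groups and SDHD did not pass in either, and this was so under both other scalings. SDHA, the flavoprotein that oxidizes succinate, gave 8.49, 8.48 and 8.37 in Huh7-S, 8.04, 8.09 and 8.03 in Huh7-R, and 8.01, 8.12 and 8.01 in Huh7-R-A7. Every resistant array was below every parental array, and clone and pool overlapped. The log2 difference was -0.40 ± 0.05 in the clone (1.32-fold, adjusted p = 0.00069) and -0.39 ± 0.05 in the pool (1.31-fold, adjusted p = 0.00076). SDHC, one of the membrane anchors that hold the coenzyme Q site, gave 11.60, 11.63 and 11.30 in Huh7-S, 10.97, 11.08 and 10.85 in Huh7-R, and 10.99, 10.97 and 11.10 in Huh7-R-A7. The groups again separated resistant from parental arrays, with log2 differences of -0.49 ± 0.10 in the clone (adjusted p = 0.0065) and -0.54 ± 0.10 in the pool (adjusted p = 0.0038). SDHD, the other membrane anchor, gave 9.61, 9.43 and 9.43 in Huh7-S, 9.43, 9.25 and 9.42 in Huh7-R, and 9.40, 9.43 and 9.43 in Huh7-R-A7, and the groups overlapped. Its log2 difference was -0.07 ± 0.07 in the clone (adjusted p = 0.45) and -0.12 ± 0.07 in the pool (adjusted p = 0.19). SDHA has near-identical pseudogenes, so its probe set may also read their transcripts. SDHB was not analysed here.

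Complex III, cytochrome bc1, had 8 genes, with 1 higher and 2 lower in Huh7-R-A7 and 3 lower in Huh7-R. This was 37.5% of its genes in each group, beside 42.7% and 45.1% of all genes. UQCR10, one of the small subunits, gave 9.31, 9.72 and 9.30 in Huh7-S, 8.63, 8.58 and 8.57 in Huh7-R, and 8.59, 8.82 and 8.57 in Huh7-R-A7. No resistant array reached the lowest parental array, and the log2 difference was -0.78 ± 0.12 in the clone (1.72-fold, adjusted p = 0.0014) and -0.85 ± 0.12 in the pool (1.81-fold, adjusted p = 0.00091). The core proteins UQCRC1 and UQCRC2, which face the matrix and derive from a processing peptidase, had differences of opposite sign. UQCRC1 gave 10.48, 10.34 and 10.16 in Huh7-S, 9.67, 9.79 and 9.68 in Huh7-R, and 9.47, 9.70 and 9.76 in Huh7-R-A7, with log2 differences of -0.69 ± 0.10 in the clone (adjusted p = 0.0013) and -0.61 ± 0.10 in the pool (adjusted p = 0.0022). UQCRC2 gave 13.05, 12.69 and 12.53 in Huh7-S, 13.11, 13.04 and 13.04 in Huh7-R, and 13.04, 13.20 and 13.27 in Huh7-R-A7. UQCRC2 overlapped between clone and parental arrays, and its log2 difference was 0.41 ± 0.13 in the clone (adjusted p = 0.034) and 0.31 ± 0.13 in the pool (adjusted p = 0.086). Its clone call was lost in 6 of the 9 fits without 1 array, those without Huh7-S 2, Huh7-S 3, Huh7-R 2, Huh7-R 3, Huh7-R-A7 2 or Huh7-R-A7 3 (adjusted p from 0.0535 to 0.107).

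CYC1, cytochrome c1 itself, gave 8.72, 8.84 and 8.41 in Huh7-S, 8.39, 8.31 and 8.14 in Huh7-R, and 8.38, 8.39 and 8.39 in Huh7-R-A7. All resistant arrays lay below the lowest parental array, though Huh7-S 3 was close to them. The log2 difference was -0.38 ± 0.11 in the pool (adjusted p = 0.028) and -0.27 ± 0.11 in the clone (adjusted p = 0.088). The pool call was lost without Huh7-S 1, Huh7-S 2, Huh7-R 2 or Huh7-R 3 (adjusted p from 0.0634 to 0.0951), and without Huh7-S 3 the clone also passed, with a log2 difference of -0.40. The other genes, UQCRB, UQCRQ, UQCR11 and UQCRHL, passed in neither group. UQCRB held only 2 different values over its 9 arrays, 6.32 and 6.33, and UQCRHL is a near-identical copy of UQCRH that the array may not separate. UQCRFS1 was not analysed here.

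Complex IV, cytochrome c oxidase, had 9 genes, with 2 higher and 1 lower in Huh7-R-A7 and 1 higher and 1 lower in Huh7-R. This was 33.3% and 22.2% of its genes, beside 42.7% and 45.1% of all genes. With median-centred arrays 4 of the 9 were higher in the clone and 5 in the pool, COX6B1 among them in both. COX8A, a small nuclear-encoded subunit, gave 14.64, 14.47 and 14.05 in Huh7-S, 13.96, 13.89 and 13.52 in Huh7-R, and 13.51, 13.89 and 13.52 in Huh7-R-A7. The resistant arrays were all lower, though the lowest parental array, Huh7-S 3, was close to the highest of them. COX8A had a log2 difference of -0.74 ± 0.19 in the clone (adjusted p = 0.015) and of -0.60 ± 0.19 in the pool (adjusted p = 0.034). The clone call was lost without Huh7-S 2, Huh7-R-A7 1 or Huh7-R-A7 3 (adjusted p from 0.0501 to 0.0527). The pool call was lost without Huh7-S 1, Huh7-S 2, Huh7-R 2, Huh7-R 3 or Huh7-R-A7 3 (adjusted p from 0.0502 to 0.114). COX7A2L, which joins complex III to complex IV in respiratory supercomplexes, gave 7.63, 7.54 and 7.40 in Huh7-S, 7.61, 7.67 and 7.67 in Huh7-R, and 7.80, 8.05 and 8.06 in Huh7-R-A7. The clone lay above every other array, and the pool overlapped the parental cells. COX7A2L rose by 0.44 ± 0.09 in the clone (1.36-fold, adjusted p = 0.0041), with a log2 difference of 0.13 ± 0.09 in the pool (adjusted p = 0.26). The clone minus pool difference of 0.32 ± 0.09 missed the threshold (adjusted p = 0.063).

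COX7A2, the related structural subunit, gave 10.39, 10.50 and 10.26 in Huh7-S, 10.66 on every Huh7-R array, and 10.66, 11.10 and 10.73 in Huh7-R-A7. All resistant arrays exceeded the parental arrays. The log2 difference was 0.44 ± 0.12 in the clone (adjusted p = 0.017, lost without Huh7-S 3 at adjusted p = 0.0561) and 0.27 ± 0.12 in the pool (adjusted p = 0.093). COX7B passed as higher in the pool (log2 difference 0.28 ± 0.10, adjusted p = 0.047), with overlapping groups, and that call was lost in 8 of the 9 fits without 1 array, all but the fit without Huh7-S 1 (adjusted p from 0.0672 to 0.146). COX6B1 had the largest positive log2 differences of the complex, 0.54 ± 0.20 in the clone and 0.53 ± 0.20 in the pool, but missed the threshold (adjusted p = 0.056 and 0.058), and its parental arrays ran from 10.49 to 11.39. COX4I1, the ubiquitous form of the regulatory subunit that binds nucleotides, gave 12.50, 12.45 and 12.32 in Huh7-S, 12.45, 12.55 and 12.45 in Huh7-R, and 12.29, 12.45 and 12.45 in Huh7-R-A7, which overlap. COX5A, COX5B and COX6A1 also passed in neither group. COX4I2, NDUFA4 and NDUFA4L2 were not analysed here.

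**Figure D3:**
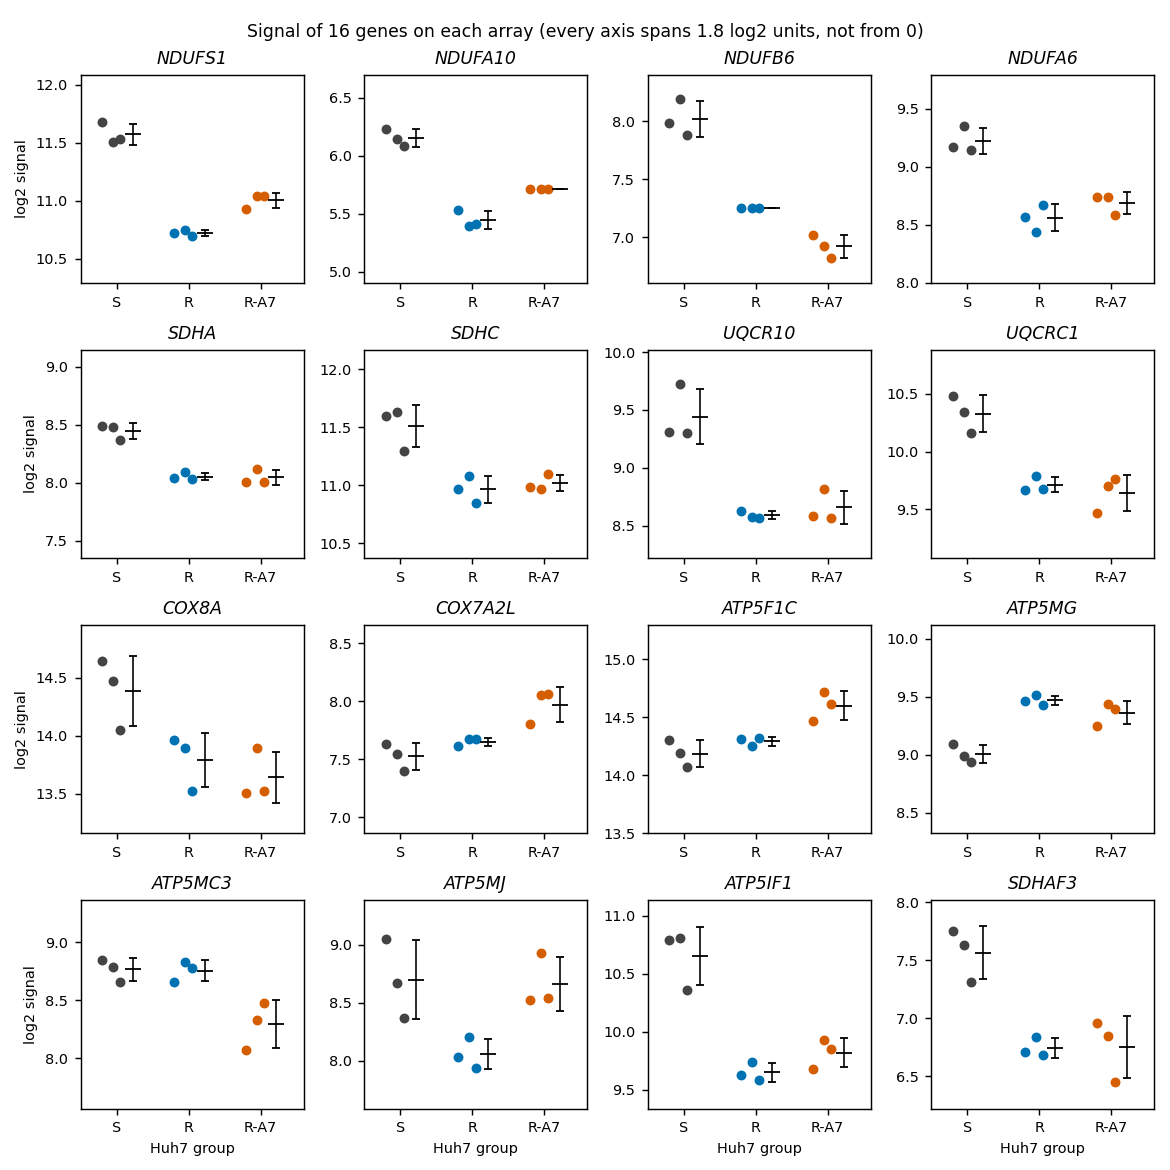
Log2 signal of 16 genes on each array in Huh7-S (S), Huh7-R (R) and Huh7-R-A7 (R-A7). Points are arrays and the line with bars is the mean ± SD of 3. NDUFS1, SDHA, UQCR10 and ATP5IF1 separate both resistant groups from Huh7-S, COX7A2L and ATP5F1C separate the clone only, and ATP5MC3 is lower in the clone only.

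Complex V, the ATP synthase, had 17 genes, with 4 higher and 2 lower in Huh7-R-A7 and 1 higher and 3 lower in Huh7-R. This was 35.3% and 23.5% of its genes, beside 42.7% and 45.1% of all genes. ATP5MG, subunit g of the membrane part, was, as deposited, the only gene of the whole set called higher in both. It gave 9.09, 8.99 and 8.94 in Huh7-S, 9.46, 9.51 and 9.43 in Huh7-R, and 9.25, 9.44 and 9.39 in Huh7-R-A7, and no resistant array overlapped the parental arrays. The log2 difference was 0.35 ± 0.07 in the clone (1.28-fold, adjusted p = 0.0038) and 0.46 ± 0.07 in the pool (1.37-fold, adjusted p = 0.001). ATP5F1C, the gamma subunit that forms the rotating stalk, gave 14.30, 14.19 and 14.07 in Huh7-S, 14.31, 14.25 and 14.32 in Huh7-R, and 14.47, 14.72 and 14.61 in Huh7-R-A7. The clone exceeded every other array. ATP5F1C had a log2 difference of 0.42 ± 0.08 in the clone (1.33-fold, adjusted p = 0.0052) and 0.11 ± 0.08 in the pool (adjusted p = 0.32), and the clone minus pool difference of 0.31 ± 0.08 missed the threshold (adjusted p = 0.068).

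The head subunits ATP5F1A and ATP5F1B, alpha and beta, form the catalytic hexamer together. ATP5F1A gave 12.78, 12.68 and 12.53 in Huh7-S, 12.38, 12.33 and 12.33 in Huh7-R, and 12.25, 12.46 and 12.48 in Huh7-R-A7, with log2 differences of -0.27 ± 0.09 in the clone (adjusted p = 0.038) and -0.32 ± 0.09 in the pool (adjusted p = 0.018). ATP5F1B gave 16.51, 16.37 and 16.26 in Huh7-S, 16.48, 16.49 and 16.37 in Huh7-R, and 16.52, 16.69 and 16.74 in Huh7-R-A7, with log2 differences of 0.27 ± 0.09 in the clone (adjusted p = 0.037) and 0.07 ± 0.09 in the pool (adjusted p = 0.55). Both clone values lay outside the parental range, ATP5F1A below it and ATP5F1B narrowly above it. These calls were weak. The clone call of ATP5F1A was lost in 8 of the 9 fits without 1 array, all but the fit without Huh7-S 3 (adjusted p from 0.0508 to 0.106), and its pool call without Huh7-S 2, Huh7-R 2 or Huh7-R 3 (adjusted p from 0.0549 to 0.0586). The call of ATP5F1B was lost without Huh7-S 2, Huh7-S 3, Huh7-R 1, Huh7-R 2, Huh7-R-A7 2 or Huh7-R-A7 3 (adjusted p from 0.0525 to 0.12). ATP5F1A lost its clone call with median-centred arrays, and ATP5F1B with cyclic loess.

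The c ring, which turns as protons pass, is built from 1 mature protein that 3 genes encode. ATP5MC3 gave 8.85, 8.79 and 8.66 in Huh7-S, 8.66, 8.83 and 8.78 in Huh7-R, and 8.07, 8.33 and 8.48 in Huh7-R-A7. The clone lay below every pool and parental array, which overlapped each other. Its log2 difference from Huh7-S was -0.47 ± 0.11 in the clone (1.39-fold, adjusted p = 0.0092) and -0.01 ± 0.11 in the pool (adjusted p = 0.96). ATP5MC2 gave 6.63, 6.47 and 6.37 in Huh7-S, 6.22, 6.30 and 6.22 in Huh7-R, and 6.37, 6.41 and 6.33 in Huh7-R-A7. It passed in the pool alone (log2 difference -0.24 ± 0.07, adjusted p = 0.026), a call lost without Huh7-S 2, Huh7-R 1 or Huh7-R 3 (adjusted p from 0.0562 to 0.0805) and under both other scalings. ATP5MC1 gave 7.97, 7.59 and 7.40 in Huh7-S, 7.43, 7.26 and 7.03 in Huh7-R, and 7.40, 7.45 and 7.31 in Huh7-R-A7, passing in neither (log2 difference -0.27 ± 0.15 in the clone, adjusted p = 0.20, and -0.42 ± 0.15 in the pool, adjusted p = 0.058). Of these c ring genes, ATP5MC3 alone passed in the comparison of clone with pool given below.

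ATP5MJ, a small membrane protein of the synthase, gave 9.05, 8.67 and 8.37 in Huh7-S, 8.03, 8.20 and 7.94 in Huh7-R, and 8.52, 8.93 and 8.54 in Huh7-R-A7. The difference was -0.64 ± 0.18 in the pool (adjusted p = 0.024, lost without Huh7-S 2, Huh7-R 1 or Huh7-R 3 at adjusted p from 0.0591 to 0.0807) and -0.03 ± 0.18 in the clone (adjusted p = 0.90). ATP5MGL, a near-identical copy of ATP5MG that the array may not separate from it, gave 5.86, 6.09 and 6.28 in Huh7-S, 7.12, 6.34 and 6.62 in Huh7-R, and 6.75, 6.5 and 7.20 in Huh7-R-A7. ATP5MGL had a log2 difference of 0.74 ± 0.24 in the clone (adjusted p = 0.038) and 0.61 ± 0.24 in the pool (adjusted p = 0.068), and the clone call was lost without Huh7-S 1, Huh7-S 2, Huh7-R 3, Huh7-R-A7 1 or Huh7-R-A7 3 (adjusted p from 0.0577 to 0.118). The 8 other complex V genes passed in neither group, with log2 differences from -0.12 (ATP5ME) to 0.28 (ATP5PO) in the clone and from -0.07 (ATP5MF) to 0.22 (ATP5F1E) in the pool.

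Of the assembly and regulatory factors, ATP5IF1 changed most. ATP5IF1, the inhibitor that keeps the synthase from running backwards and consuming ATP, gave 10.79, 10.81 and 10.36 in Huh7-S, 9.63, 9.74 and 9.58 in Huh7-R, and 9.68, 9.93 and 9.85 in Huh7-R-A7. Every resistant array was well below the lowest parental array. Its log2 difference was -1.0 ± 0.13 in the pool (2.01-fold, adjusted p = 0.00055), the largest decrease of the pool, and -0.83 ± 0.13 in the clone (1.78-fold, adjusted p = 0.0014). SDHAF3, which protects the iron-sulfur subunit of complex II while it matures, gave 7.75, 7.63 and 7.31 in Huh7-S, 6.71, 6.84 and 6.68 in Huh7-R, and 6.96, 6.85 and 6.45 in Huh7-R-A7. The groups separated in the same way, with log2 differences of -0.81 ± 0.15 in the clone (1.75-fold, adjusted p = 0.0038) and -0.82 ± 0.15 in the pool (1.77-fold, adjusted p = 0.0035). NDUFAF3, a complex I assembly factor, gave 6.80, 6.69 and 6.61 in Huh7-S, 6.26, 6.44 and 6.34 in Huh7-R, and 6.22, 6.44 and 6.44 in Huh7-R-A7, log2 differences of -0.33 ± 0.08 (adjusted p = 0.015) in the clone and -0.35 ± 0.08 (adjusted p = 0.011) in the pool.

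The other factors gave weaker results. NDUFAF5, a complex I assembly factor of the methyltransferase family, passed as higher in the clone (log2 difference 0.32 ± 0.10, adjusted p = 0.032), a call lost without Huh7-R 2 or any 1 of the clone arrays (adjusted p from 0.0509 to 0.0946). In the pool, SDHAF2, which helps to attach the flavin to SDHA, passed as higher (0.32 ± 0.10, adjusted p = 0.037) and NDUFAF8 as lower (-0.19 ± 0.06, adjusted p = 0.048). SDHAF2 was lost in 8 of the 9 fits without 1 array, all but that without Huh7-S 1, and NDUFAF8 in 7, all but those without Huh7-S 3 or Huh7-R 1. NDUFAF1, NDUFAF2, NDUFAF4, NDUFAF7 and SDHAF4 passed in neither group.

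**Figure D4:**
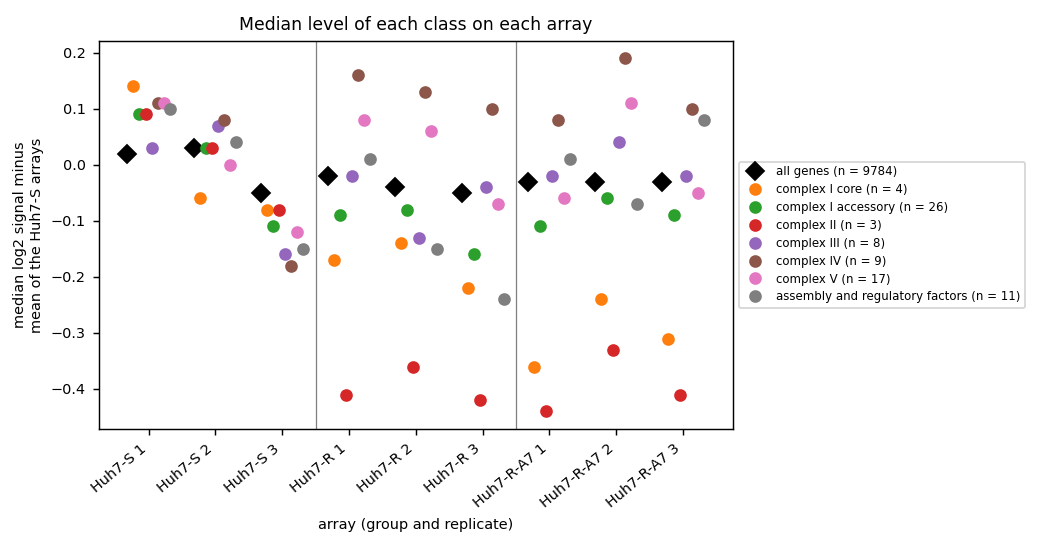
Median over each class of the log2 signal minus the mean of the Huh7-S arrays (vertical axis), for each array. Points are spread sideways for legibility, and diamonds are all 9784 genes. Complex II lies between -0.44 and -0.33 on all 6 resistant arrays, while on Huh7-S 3 every class lies below the median of all genes.

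The resistant groups differed little from each other. In Huh7-R-A7 against Huh7-R, 3 of the 78 genes passed (3.8%), 2 higher and 1 lower, where 8.63% of all genes passed, 4.11% higher and 4.52% lower. NDUFS1 was higher in the clone by 0.28 ± 0.06 on the log2 scale (adjusted p = 0.034), so that it sat between pool and parental cells. NDUFA10 passed too (0.27 ± 0.06, adjusted p = 0.031), but it lay below log2 6 in both groups and its clone arrays are equal, so no order of pool and clone is read from it. ATP5MC3 was lower in the clone, with a log2 difference of -0.46 ± 0.11 (1.38-fold, adjusted p = 0.038). None of these calls held in every fit that left out 1 array. ATP5MC3 was lost without Huh7-S 2, Huh7-R 2, Huh7-R 3, Huh7-R-A7 1 or Huh7-R-A7 2 (adjusted p from 0.0637 to 0.137). NDUFS1 was lost without any 1 of the pool arrays or without Huh7-R-A7 2 or 3 (adjusted p from 0.0606 to 0.121), and NDUFA10 without Huh7-R 2, Huh7-R 3 or any 1 of the clone arrays (adjusted p from 0.0823 to 0.115). With the replicate number as a block over all 9 arrays, NDUFA10 passed (adjusted p = 0.035), while ATP5MC3 and NDUFS1 did not (adjusted p = 0.055 and 0.061). That block also rests on the parental arrays, which do not pair with the others.

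Genes that build or feed the respiratory chain were examined in lists outside the set. Of 39 measured assembly factors with other names, 3 were higher and 13 lower in Huh7-R-A7 than in Huh7-S, and 2 higher and 15 lower in Huh7-R, with median log2 differences of -0.19 and -0.26. The shares that passed, 41.0% and 43.6%, were close to the 42.7% and 45.1% of all genes. The 3 largest decreases in the clone were those of COX18, COX11 and COA7, closely followed by ACAD9 (log2 difference -0.82 ± 0.06, adjusted p = 3.3e-05). In the pool BCS1L (-1.11 ± 0.13, adjusted p = 0.0004) and ACAD9 (-1.03 ± 0.06, adjusted p = 1.2e-05) fell further than COX11. COX18, which inserts the COX2 tail into the membrane, had a log2 difference of -1.29 ± 0.14 in the clone (adjusted p = 0.00028) and -1.46 ± 0.14 in the pool (adjusted p = 0.00015). COX11, a copper chaperone, had -0.93 ± 0.12 (adjusted p = 0.00052) and -0.74 ± 0.12 (adjusted p = 0.0015), and COA7, another assembly factor, -0.84 ± 0.13 (adjusted p = 0.0014) and -1.29 ± 0.13 (adjusted p = 0.00017).

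Of 17 measured genes for electron carriers and coenzyme Q synthesis, 3 were higher and 4 lower in the clone, and 3 higher and 6 lower in the pool. This was 41.2% and 52.9% of the list, beside 42.7% and 45.1% of all genes. SQOR, which passes electrons from sulfide to coenzyme Q, rose by 3.05 ± 0.59 on the log2 scale in the clone (adjusted p = 0.0042) and by 3.16 ± 0.59 in the pool (adjusted p = 0.0035). ETFB, a subunit of the flavoprotein that carries electrons from fatty acid oxidation, had a log2 difference of -2.18 ± 0.22 in the clone (adjusted p = 0.00015) and -1.60 ± 0.22 in the pool (adjusted p = 0.00074). COQ5, a methyltransferase of coenzyme Q synthesis, had -0.64 ± 0.18 (adjusted p = 0.024, lost without any 1 of the clone arrays at adjusted p from 0.0502 to 0.0727) and -0.72 ± 0.18 (adjusted p = 0.015, lost without Huh7-R 3 at adjusted p = 0.0509). The differences of SQOR and ETFB were larger than any in the oxidative phosphorylation set.

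Of 23 measured genes of pyruvate entry and the citric acid cycle, 2 were higher and 4 lower in the clone, and 3 higher and 5 lower in the pool, or 26.1% and 34.8% of the list beside 42.7% and 45.1% of all genes. PC, pyruvate carboxylase, had a log2 difference of -1.57 ± 0.13 in the clone (adjusted p = 6.9e-05) and -0.64 ± 0.13 in the pool (adjusted p = 0.0058). PDP1, the phosphatase that activates pyruvate dehydrogenase, rose by 1.14 ± 0.05 on the log2 scale (adjusted p = 4.9e-06) and by 1.17 ± 0.05 (adjusted p = 4.5e-06). PDK1, a pyruvate dehydrogenase kinase, had the largest log2 difference of the list in the pool (2.04 ± 0.36, adjusted p = 0.0028). PDK1 did not pass in the clone (0.46 ± 0.36, adjusted p = 0.34). Its clone minus pool difference was -1.58 ± 0.36 (adjusted p = 0.038). MPC1, a subunit of the mitochondrial pyruvate carrier, had -0.69 ± 0.14 (adjusted p = 0.0055) and -0.92 ± 0.14 (adjusted p = 0.0013). Of 6 measured adenine nucleotide and phosphate carriers and porins, VDAC3, a porin of the outer membrane, passed in the clone (-0.43 ± 0.08, adjusted p = 0.0028), and 2 were lower in the pool (16.7% and 33.3% of the list).

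Of 18 measured regulators of mitochondrial biogenesis, none was higher and 6 were lower in the clone, and 1 was higher and 9 lower in the pool. This was 33.3% and 55.6% of the list, beside 42.7% and 45.1% of all genes. MYC, a transcription factor with many mitochondrial targets, had a log2 difference of -0.71 ± 0.23 in the clone (adjusted p = 0.036) and -0.95 ± 0.23 in the pool (adjusted p = 0.01). Its clone call was lost in 5 of the 9 fits without 1 array, those without Huh7-S 1, Huh7-S 2, Huh7-R 2, Huh7-R-A7 2 or Huh7-R-A7 3 (adjusted p from 0.0576 to 0.117). LONP1, the matrix protease, had -0.59 ± 0.08 (adjusted p = 0.00065) in the clone and -0.27 ± 0.08 (adjusted p = 0.025) in the pool, the pool call being lost without Huh7-S 1, Huh7-S 2 or any 1 of the pool arrays (adjusted p from 0.0567 to 0.0799). PPRC1, a coactivator that binds NRF1, had -0.55 ± 0.11 (adjusted p = 0.006) and -0.79 ± 0.11 (adjusted p = 0.001). Of the factors whose motifs were searched above, YY1 was lower in the pool (log2 difference -0.46 ± 0.06, adjusted p = 0.00071) and did not pass in the clone (-0.10 ± 0.06, adjusted p = 0.23). Clone and pool differed for YY1 by 0.36 ± 0.06 (adjusted p = 0.012), and both calls held in all 9 fits without 1 array and with the replicate block. ESRRA and GABPA passed in neither group, with log2 differences of 0.05 and -0.05 in the clone and -0.02 and 0.01 in the pool. The mitochondrially encoded subunits were not analysed here.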

How the data were processed

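RNA of 9 cultures was hybridised to Affymetrix Human Transcriptome Array 2.0, 3 arrays for each of the parental, pool and clone groups. Per the study's methods, the authors summarised the arrays with RMA in Affymetrix Expression Console and deposited log2 signal values, after removing probe sets below log2 6 on 85% of the arrays. The software version and genome build are not given in the sources used here, and no probe set had to be removed by that limit again. Groups came from the sample labels.

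Probe sets with 1 symbol were kept (9851 of 11013; 624 had several and 538 none), those of a gene were averaged, and symbols were updated through RefSeq (9849 matched, 77 changed, none in this set). limma 3.58.1 in R 4.3.3 fitted the 3 groups to all 9784 genes (lmFit, eBayes with an intensity trend), two-sided, with Benjamini-Hochberg adjustment over all genes and a threshold of 0.05. The fit was tested on simulated data. Tables were made with pandas 2.3.3 under Python 3.11.15, and figures with matplotlib 3.10.9. The level of one gene was not set against that of another.

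Members, lists and tests were chosen with earlier results of these data known. In each class, genes were named that passed with the 4 largest changes in Huh7-R-A7 against Huh7-S, or the 3 largest in each other comparison, as were genes fixed by name (subunits of complex II, NDUFS1, NDUFV1, CYC1, UQCRFS1, COX4 forms, NDUFA4, NDUFA4L2, ATP5F1A, ATP5F1B, ATP5IF1 and the c ring genes) and, of each list, up to 3 genes. NDUFA12, NDUFB3, NDUFA8, NDUFV3, COX6B1, SDHAF2 and NDUFAF8 were added after their values were seen, to cover every gene that passed. YY1, ESRRA and GABPA were named, also with values known, because their motifs were searched. PDK1, ACAD9 and BCS1L were named, again with values known, for the size of their differences within their lists. Pool and clone arrays of the same number deviated together from their group means (correlations 0.60, 0.49 and 0.42), so the numbers pair these groups, a pairing seen in the data while the labels name no shared day. No such pairing held for the parental arrays. Alternatives covered leaving out each array, the arrays entered, a replicate block, median centring, cyclic loess, the variance prior, array weights, separate probe sets, low signal, equal values, stricter thresholds and leaving out the assembly factors. Restricting each group to replicates 2 and 3 was added after seeing the data.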

Additional observations from a re-analysis of the deposited data

Results flagged for a closer look

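For 3 genes the test of Huh7-R-A7 against Huh7-R passed without the replicate block. With the block, NDUFA10 alone passed (adjusted p = 0.035), and ATP5MC3 (0.055) and NDUFS1 (0.061) did not. Clone and pool arrays of the same number deviated together, but the block was fitted to all 9 arrays. Its terms thus also rest on the parental arrays, for which no pairing held. The log2 difference of the clone from the pool was -0.46 for ATP5MC3, one of the genes of the c ring, 0.28 for NDUFS1 and 0.27 for NDUFA10. ATP5MC3 was lower than in Huh7-S in the clone alone, while NDUFS1 was lower in both groups, with its lowest mean in the pool. Removing 1 array at a time ended each call in 5 of 9 fits. NDUFA10 was lower than in Huh7-S in both groups, lay below log2 6 in both and held 1 value on all 3 clone arrays, so pool and clone have no order for it.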

How the results depend on the processing

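No call reversed among genes of the set named by rank or fixed by name. Over all alternatives and comparisons 1654 of their values kept their side of the threshold, 110 no longer passed and 45 newly passed. Genes added after their values were seen and genes of the lists are not in these counts. The medians of the complexes kept within 1 SD of their value in 388 cases and moved in 32. In Huh7-R-A7 against Huh7-S the count of 26 went to 14 among genes with 9 different values, where the median log2 difference was -0.144 instead of -0.039, and to 14 at an adjusted p below 0.01. In Huh7-R against Huh7-S the count of 25 went to 13 and the median from -0.029 to -0.268 among genes with 9 different values, and the count to 14 at an adjusted p below 0.01. It ranged from 15 (without Huh7-R 3) to 29 (without Huh7-S 3) on leaving out 1 array, with 16 without Huh7-S 2. Fewer genes were tested where values had to differ: 24 of the 78 remained. In Huh7-R-A7 against Huh7-R the count of 3 ranged from 0 (without Huh7-R 2, Huh7-R 3 or Huh7-R-A7 2) to 7 (without Huh7-S 1), with 5 without Huh7-S 3 and 1 without Huh7-R-A7 3, and the median from 0.014 to 0.059. It was 6 with only the arrays of both groups, 6 with median-centred arrays and 14 with array weights. Array weights also raised the share of all genes that passed, from 8.63% to 25.3%. The count was 7, with a median of 0.077, on replicates 2 and 3 only. It was 0 among genes with 9 different values and 0 at an adjusted p below 0.01 with limma, where 11 genes had an unadjusted p below 0.05. With the replicate block it was 1, with ATP5MC3 and NDUFS1 at adjusted p = 0.055 and 0.061, and the counts against Huh7-S were 25 and 24. There the parental arrays share only a number with the others, and the block ended the clone calls of ATP5F1A, ATP5F1B and UQCRC2 (adjusted p = 0.069, 0.065 and 0.056) and the pool calls of COX7B and SDHAF2 (0.066 and 0.052), while ATP5PO and NDUFAF4 passed in the clone (0.025 and 0.047) and ATP5MC1 in the pool (0.016). The limits in the study's methods (fold above 3 or under 0.25, p below 0.0001) were applied here to unadjusted p from limma. With them the count was 0 in all 3 comparisons, the largest folds being 2.14, 2.01 and 1.52. The study gave its limits for Huh7-R-A7 against Huh7-S only, and its results name an adjusted p instead. At an unadjusted p below 0.05 limma gave 34, 30 and 11. Causes were not tested. Signals near log2 6 limit NDUFA10, NDUFS6 and ATP5MGL, equal values make the spread look small, and 3 arrays a group limit every call.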
